A study of Mus musculus with 4 samples.

Results

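The genes described here form the metabolic arm of the response to the transcription factor ATF4: 12 genes for enzymes that make amino acids or one-carbon units, 8 for amino acid transporters, and 15 for aminoacyl-tRNA synthetases or the tRNA exporter Xpot. They form a list of 35 gene names, chosen with earlier results of these data known. Every non-control probe whose RefSeq accession maps to one of them was taken. Of the 35 genes, 34 had a probe. They were covered by 52 probes, of which 50 passed a filter that asks for a signal well above background in both samples of a group, out of 37516 such probes and 16524 genes in all. Pycr1, an enzyme of proline synthesis, had no probe under this rule. Each gene is given on its brightest probe, and each of those 34 probes was well above background on all 4 arrays.

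RNA came from the whole cerebellum of C57BL/6 mice at postnatal day 28, with 2 control samples, 2 knockout (KO) samples and 1 one-colour Agilent array for each. The labels number the samples but do not say that each is a separate mouse, so the p-values measure only the spread between these samples. The control mice were homozygous for a floxed Derl2 allele (Derlin-2flox/flox), and the KO mice came from crossing Derl2flox/flox mice with mice that express Cre recombinase from the nestin promoter. Derl2 encodes Derlin-2, a protein of the endoplasmic reticulum (ER) membrane that helps to remove misfolded proteins. The nestin promoter acts in neural precursors, so cells of other lineages, such as microglia and vessel cells, may keep the gene. Which cells kept it was not measured. By the labels only the KO mice descend from the Cre line, so effects of Cre and of the deletion cannot be told apart. In the KO samples the Derl2 signal was 37.6% of control. Here and below, log2 signal means the log2 processed signal less the 75th percentile of the array, and a difference is KO minus control on that scale. All 12 Purkinje cell markers and all 12 granule cell markers looked up passed the filter. So did all 12 microglia markers and all 12 endothelial markers, so passing it does not identify the tissue. In bulk tissue, fewer cells of a type and less RNA per cell cannot be told apart.

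ATF4 is made when a kinase, such as PERK at the ER or GCN2 when amino acids run short, phosphorylates the initiation factor eIF2 and lowers translation in general. It binds as a dimer with C/EBP proteins to a composite element, the amino acid response element or C/EBP-ATF response element. Through it, ATF4 drives the genes that make, import and activate amino acids, together with further targets such as Chac1 and Trib3. In brain, serine made by glia through Phgdh, Psat1 and Psph also supplies neurons with precursors of glycine and D-serine.

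The promoter sequences of some members hold the letters of this element. A RefSeq promoter of the GRCm38.p6 build, running from 250 bases before to 50 bases after the annotated start, was given for 26 of the 35 members. TGATGNAA, the core of the element, in which a site for ATF4 adjoins one for C/EBP proteins, was searched on both strands with 1 variable base; TGATGCAA is its strict form and is contained in it. TGATGNAA was found for 10 of the 26 members (38.5%), against 4.51% of all 27025 genes in the table. TGATGCAA was found for 8 of the 26 (30.8%), against 1.03% of all genes. Of these matches, 11 are shown here as windows of 30 bases, which do not cover every match behind the counts, because they let the element be compared between enzymes, transporters and synthetases. Each is turned so that the element reads forward, and capitals mark the match.

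Asns, chr6:7693214-7693243, minus strand: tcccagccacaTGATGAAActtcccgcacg
Pycr1, chr11:120643833-120643862, minus strand: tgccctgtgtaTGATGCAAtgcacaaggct
Got1, chr19:43524689-43524718, plus strand: ggaggcttgtaTGATGCAAccaatgcaatg
Slc7a11 distal, chr3:50443661-50443690, minus strand: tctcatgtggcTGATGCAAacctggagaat
Slc7a11 proximal, chr3:50443642-50443671, plus strand: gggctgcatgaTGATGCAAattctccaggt
Slc1a4, chr11:20332699-20332728, plus strand: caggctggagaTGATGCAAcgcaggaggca
Aars, chr8:111033840-111033869, minus strand: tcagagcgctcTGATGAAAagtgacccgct
Gars, chr6:55037960-55037989, minus strand: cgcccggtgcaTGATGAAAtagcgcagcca
Iars, chr13:49682126-49682155, minus strand: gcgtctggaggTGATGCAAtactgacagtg
Tars, chr15:11399655-11399684, plus strand: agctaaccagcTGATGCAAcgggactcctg
Yars, chr4:129189895-129189924, plus strand: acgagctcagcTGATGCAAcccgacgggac

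By role, the element was found for 3 of 11 synthesis genes, 2 of 5 transporters and 5 of 10 charging genes that have a promoter in the table. The Asns match began 23 bases before the start, and that of Gars 30 bases before it. The Aars match shown and those of Iars and Yars began 9, 7 and 3 bases after the start, and that of Slc1a4 straddled it, counting the start as 0. Slc7a11 carried a pair of strict matches on opposite strands, and its 250 bases before the start, chr3:50443614-50443863 on the minus strand, are printed here to show both in place.

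Slc7a11: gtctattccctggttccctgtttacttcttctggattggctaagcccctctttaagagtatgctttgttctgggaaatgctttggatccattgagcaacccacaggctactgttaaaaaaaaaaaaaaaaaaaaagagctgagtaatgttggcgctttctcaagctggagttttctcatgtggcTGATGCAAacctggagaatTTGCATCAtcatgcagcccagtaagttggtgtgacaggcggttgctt

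Among other genes of amino acid metabolism in the table, TGATGNAA was found for 0 of 8 other cytosolic synthetase and cofactor genes, 0 of 14 mitochondrial synthetases, 0 of 17 other enzymes and 1 of 16 other transporters. Of 19 regulators and further targets of ATF4, by contrast, 5 (26.3%) held TGATGNAA and 4 (21.1%) TGATGCAA. A match describes the letters of a 300-base window and is not evidence of binding, and the members were listed as ATF4 targets to begin with.

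**Figure D1:**
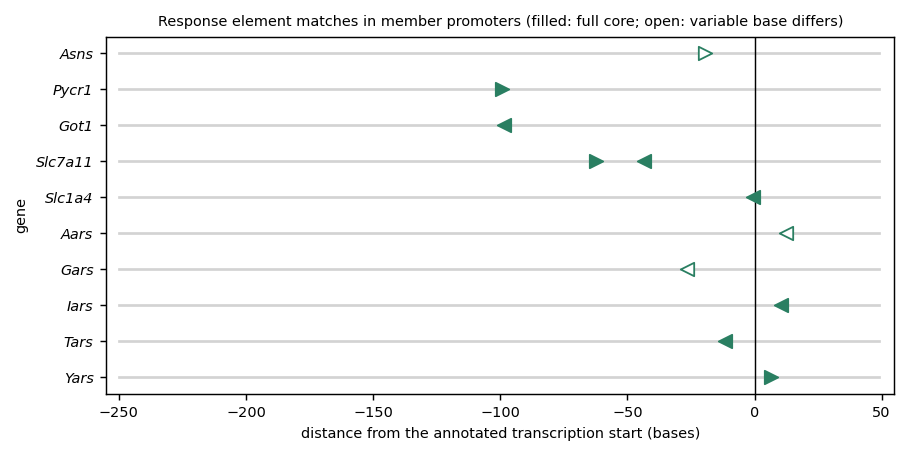
Position of the TGATGNAA matches shown above in the promoters of 10 member genes, in bases from the annotated start of transcription at 0. Filled triangles are strict TGATGCAA matches, open ones have another base at the variable position, and triangles point right where the element lies on the strand of the gene; the 11 matches drawn lie between 103 bases before the start and 16 bases after it.

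No member passed the adjusted threshold in the comparison of KO with control. With limma and Benjamini-Hochberg adjustment over all 37516 probes, the adjusted p of the members ran from 0.33 to 0.988. Derl2, the deleted gene, had a limma unadjusted p of 0.000111 and an adjusted p of 0.273, and 0% of all genes passed 0.05. The count over all genes became 188 without control 2 and 9 without control 1, and that of the members stayed at 0 in both. The direction was uneven, however: 26 of 34 members (76.5%) had a difference above 0, against 36.1% of all genes. The median difference was 0.131 over the members and −0.064 over all genes. For 11 members both KO arrays lay above both control arrays, where 13.8% of all genes did, and for 4 members both KO arrays lay below, where 32.1% of all genes did. At an unadjusted p under 0.05, 3 members were higher in KO and 1 was lower, against 3.16% and 5.65% of all genes. These shares set the members beside all genes and are not a test of the list. Its genes were chosen with earlier results of these data known. Part of the split depends on how the arrays are scaled: with spike-in scaling 14 members had separate groups higher in KO and 1 lower, against 26.1% and 16.9% of all genes, and with quantile normalization there were 12 and 1, against 18.4% and 24.9%.

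**Figure D2:**
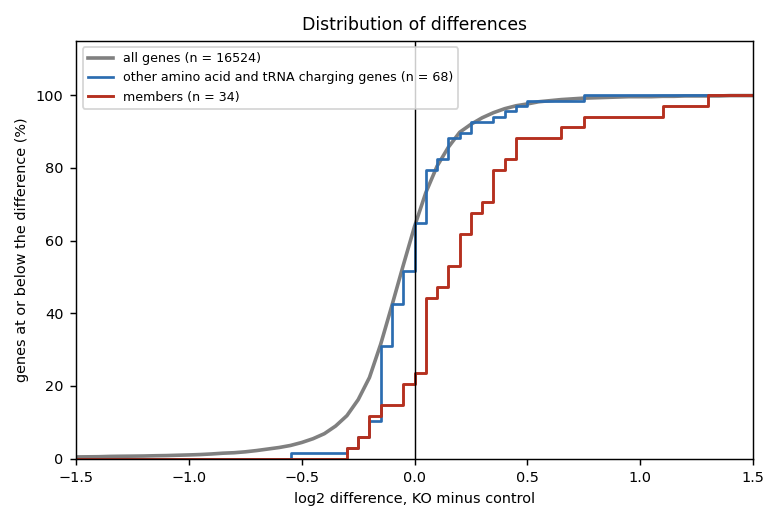
Cumulative share of genes (vertical axis, %) at or below a given KO minus control log2 difference (horizontal axis), for all 16524 genes, the 34 members and 68 other genes of amino acid metabolism and tRNA charging. The curve of the members lies to the right, with a median of 0.131. The other amino acid genes, with a median of −0.054, follow all genes. Both sets were chosen with earlier results of these data known.

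The 2 samples within a group were not alike. KO 1 gave the highest signal for 19 of the 34 members (55.9%), against 20.8% of all genes, and control 1 the lowest for 20 (58.8%), against 18.8%. KO 1 stood above KO 2 for 23 members, or 67.6%, where 50.5% of all genes did so. Control 2 stood above control 1 for 25 members, or 73.5%, where 52% of all genes did so. The median over the members was 0.276 for KO 1 less control 1, 0.172 for KO 1 less control 2, 0.176 for KO 2 less control 1 and 0.007 for KO 2 less control 2. Control 1 was lowest and KO 1 highest at once for 14 members (41.2%), against 6.35% of all genes, with control 2 and KO 2 in the middle. The group median of 0.131 became 0.054 without KO 1, 0.068 without control 1, 0.231 without KO 2 and 0.168 without control 2. The count of members with KO above control on every array kept went from 11 to 22 without control 2 and 21 without KO 2, and the count below went from 4 to 8 without control 1 or without KO 1. The share of all genes also moves when only 3 arrays are compared, to between 22.1% and 28.4% above and between 45.1% and 48.8% below.

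**Figure D3:**
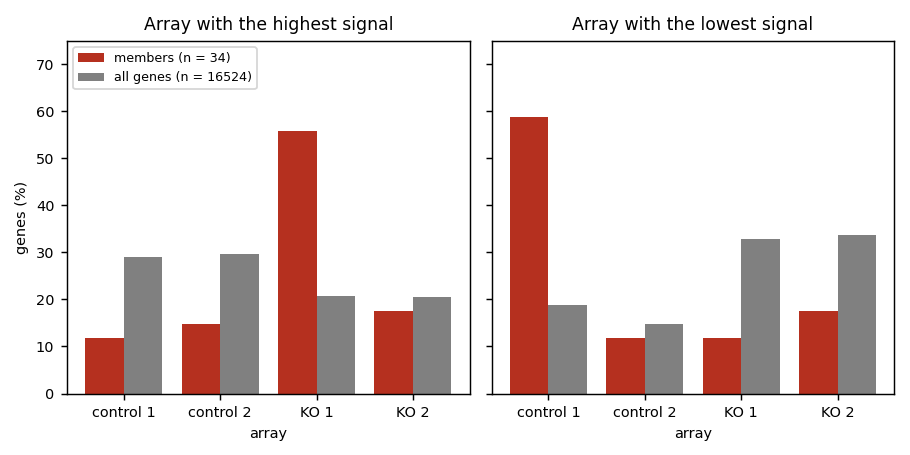
Share of genes (vertical axis, %, from 0) whose highest signal (left) or lowest signal (right) fell on each of the 4 arrays, for the 34 members and for all 16524 genes. KO 1 holds the highest value for 55.9% of members and control 1 the lowest for 58.8%, while all genes are spread more evenly, between 14.8% and 33.7%.

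Of the 11 synthesis enzymes measured, 5 had both KO arrays above both controls and 2 had both below, against 13.8% and 32.1% of all genes, and the median difference was 0.302. Leaving out control 1 brought that median to 0.097 and leaving out KO 2 to 0.437. Mthfd2, the mitochondrial dehydrogenase and cyclohydrolase that feeds formate production, had log2 signals of −1.73 and −1.06 in the controls and 0.44 and −0.67 in KO. Both KO arrays were above both controls, but KO 2 lay nearer to control 2 than to KO 1. The means were −1.39 ± 0.474 (SD, n = 2) and −0.12 ± 0.782 (SD, n = 2), a difference of 1.27 (SE 0.449), or 2.42-fold, with a limma adjusted p of 0.343. A second, dimmer Mthfd2 probe differed by 1.04 (SE 0.502), also with separate groups. Without KO 1 the Mthfd2 difference was 0.721, and without KO 2 it was 1.83.

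Aldh18a1, which makes the precursor of proline and ornithine from glutamate, measured 0.22 and 0.57 in the controls and 1.27 and 0.76 in KO. Its groups did not overlap, and the difference was 0.62 (SE 0.232; limma adjusted p 0.358). Psph, the phosphatase of the last step of serine synthesis, measured 2.40 and 2.63 in the controls and 3.06 and 2.79 in KO, a difference of 0.41 (SE 0.153; limma adjusted p 0.357), again with separate groups. The values of the other serine pathway enzymes were different. Phgdh, which commits 3-phosphoglycerate to serine, measured 3.78 and 3.84 in the controls and 3.78 and 3.85 in KO, a difference of 0.01 with a 95% confidence interval from −0.26 to 0.28. Psat1, the transaminase of the middle step, measured 3.4 and 3.38 in the controls and 3.03 and 3.34 in KO. Both KO arrays of Psat1 lay below the controls, by little on KO 2; the difference was −0.20 (SE 0.144), and a second Psat1 probe differed by −0.34.

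Shmt2, which turns serine into glycine in mitochondria, measured 0.50 and 0.69 in the controls and 1.07 and 0.77 in KO, a difference of 0.33 (SE 0.153) with separate groups. Gpt2, the mitochondrial alanine transaminase, measured 1.2 and 0.94 in the controls and 1.53 and 1.42 in KO. Its KO samples lay close together, and the difference was 0.41 (SE 0.136; limma unadjusted p 0.0363, adjusted p 0.334); a dimmer Gpt2 probe differed by 0.32 with overlapping groups. Asns, asparagine synthetase and the classic target of the amino acid response, measured 4.04 and 4.45 in the controls and 4.69 and 4.42 in KO. Here the groups overlapped, since KO 2 lay just under control 2, and the difference was 0.30 (SE 0.192; 95% confidence interval −0.22 to 0.82; limma adjusted p 0.52). A second Asns probe, with a spot in an area of raised local background on 1 array, differed by 0.28.

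The remaining enzymes had small differences or ones that changed sign between samples. Got1, the cytosolic aspartate transaminase, measured 5.87 and 5.70 in the controls and 5.67 and 5.48 in KO, a difference of −0.21 (SE 0.130) with both KO arrays below the controls. Mthfd1l, the mitochondrial formate synthetase, measured −1.53 and −1.5 in the controls but −1.24 and −1.70 in KO, so the KO samples lay on either side of the controls. Cth, which makes cysteine from cystathionine, did the same the other way round, with −2.48 and −2.61 in the controls and −3.04 and −2.17 in KO. Each of the last 2 genes had an interval that spans 0, from −0.45 to 0.54 for Mthfd1l and from −0.90 to 0.79 for Cth.

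**Figure D4:**
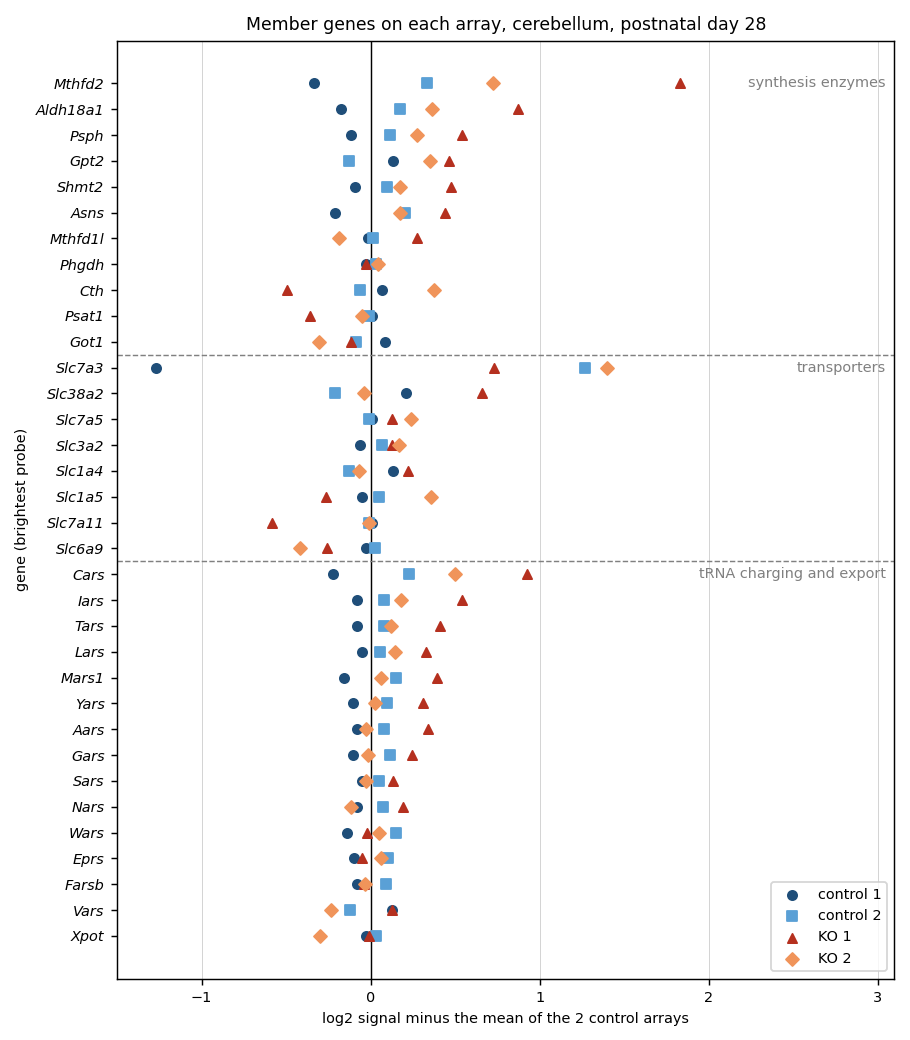
Log2 signal of the 34 members on each of the 4 arrays, less the mean of the 2 control arrays (horizontal axis), with genes ordered by role and then by difference (vertical axis). For 9 charging genes and for Asns, Mthfd2, Aldh18a1, Psph and Shmt2 the order from left to right begins with control 1 and ends with KO 1, and Slc7a3 has its control arrays furthest apart, at −1.95 and 0.59 before centring.

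Of the 8 transporters measured, 2 had both KO arrays above both controls and 2 had both below, against 13.8% and 32.1% of all genes. Their median difference was 0.109, which became 0.035 without control 1. Slc7a5 and Slc3a2 encode the light and heavy chains of the exchanger that brings in leucine and other large neutral amino acids. Slc7a5 measured 3.71 and 3.69 in the controls and 3.83 and 3.94 in KO, a difference of 0.18 (SE 0.103; limma adjusted p 0.475). Slc3a2 measured 4.04 and 4.17 in the controls and 4.23 and 4.27 in KO, a difference of 0.15 (SE 0.108; limma adjusted p 0.566). Both chains thus had separate groups on the brightest probe, but a dimmer Slc3a2 probe differed by −0.16 with both KO arrays below the controls, and the mean of the Slc3a2 probes differed by −0.007.

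Slc7a11, the cystine transporter that shares the heavy chain Slc3a2 and carries the paired element shown above, had a difference below 0 on its brightest probe. It measured −0.53 and −0.55 in the controls and −1.12 and −0.55 in KO, a difference of −0.30 (SE 0.218; limma adjusted p 0.564). KO 1 alone lay apart, and without it the difference was −0.01. The gene is among those counted with both KO arrays below, although control 2 and KO 2 round to the same −0.55. Its second probe, much dimmer and with a spot in an area of raised local background on 1 array, differed by 0.21. Slc6a9, the glycine transporter GlyT1 of glia, measured 5.56 and 5.61 in the controls and 5.33 and 5.17 in KO. The difference was −0.33 (SE 0.113; 95% confidence interval −0.64 to −0.03; limma unadjusted p 0.0372, adjusted p 0.334), and it was the 1 member lower in KO at an unadjusted p under 0.05.

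Slc7a3, a carrier of arginine and lysine, had the second largest difference of any member and the least stable one. It measured −1.95 in control 1 but 0.59 in control 2, and 0.05 and 0.72 in KO. Control 2 therefore exceeded KO 1, and the difference of 1.06 (SE 0.898; limma adjusted p 0.613) became 2.34 without control 2 and −0.211 without control 1. Control 2 was also the array with the choroid plexus signal: the summed linear signal of 11 measured markers of that epithelium was 245.1 there, against 33.03 in control 1, 24.26 in KO 1 and 26.2 in KO 2, and the part of choroid plexus in the Slc7a3 values was not tested. Slc38a2, the sodium-coupled carrier of small neutral amino acids, measured 3.48 and 3.06 in the controls and 3.93 and 3.23 in KO, with overlapping groups and a difference of 0.31 (SE 0.294). Slc1a4, an exchanger of alanine, serine and cysteine, differed by 0.07 (SE 0.163), and the related glutamine exchanger Slc1a5 by 0.04 (SE 0.234), both with overlapping groups.

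Of the 15 charging genes, 12 had a difference above 0, 4 had both KO arrays above both controls and 0 had both below, against 36.1%, 13.8% and 32.1% of all genes, with a median of 0.114. For 9 of the 15, control 1 was the lowest array and KO 1 the highest, which held for 5 of 11 synthesis genes and 0 of 8 transporters. Control 2 exceeded control 1 for 14 of the 15, and KO 1 exceeded KO 2 for 12. KO 1 stood above both controls for 10 of them and KO 2 for 4. Over all genes, these last shares were 27.5% for KO 1 and 27.6% for KO 2. Without KO 1 the median was 0.026, without control 1 it was 0.065, and without control 2 and KO 2 it was 0.225 and 0.244. In single pairs the median of the charging genes was 0.354 for KO 1 less control 1 and 0.203 for KO 1 less control 2. It was 0.124 for KO 2 less control 1 and −0.095 for KO 2 less control 2, so only the last pair was below 0.

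Cars, the cysteinyl-tRNA synthetase, had the largest difference of the synthetases. It measured 2.48 and 2.93 in the controls and 3.63 and 3.2 in KO, with separate groups. The difference was 0.71 (SE 0.232), or 1.63-fold, with a 95% confidence interval from 0.08 to 1.33 and a limma adjusted p of 0.33. A further pair of Cars probes gave 0.69 (SE 0.175) and 0.68 (SE 0.182), each with separate groups, so that 3 of 3 probes gave nearly the same size. Leaving out 1 array moved the value on the brightest probe between 0.483 and 0.933.

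Iars, Tars and Lars, the synthetases for isoleucine, threonine and leucine, were the other 3 with separate groups. Iars measured 2.56 and 2.72 in the controls and 3.18 and 2.82 in KO, a difference of 0.36 (SE 0.165; limma adjusted p 0.413). Tars measured 2.37 and 2.53 in the controls and 2.86 and 2.57 in KO, a difference of 0.27 (SE 0.149; limma adjusted p 0.474). In both, KO 2 lay close to control 2, as it did for Lars. Lars measured 2.69 and 2.80 in the controls and 3.07 and 2.89 in KO, a difference of 0.24 (SE 0.120; limma adjusted p 0.443); its second probe differed by 0.10, also with separate groups.

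Mars1, Yars, Aars and Gars, the synthetases for methionine, tyrosine, alanine and glycine, had overlapping groups with KO 1 highest. Mars1 differed by 0.22 (SE 0.181), with 0.34 and 0.65 in the controls and 0.89 and 0.56 in KO. Yars differed by 0.16 (SE 0.150), with 2.77 and 2.97 in the controls and 3.18 and 2.90 in KO. Aars differed by 0.15 (SE 0.168), with 3.79 and 3.95 in the controls and 4.21 and 3.84 in KO. In each of these 3 genes KO 2 lay between the controls. Gars, which measured 5.42 and 5.64 in the controls and 5.77 and 5.51 in KO, did so too, and differed by 0.11 (SE 0.150).

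The last 7 charging genes differed by less than 0.16 in size, and each had overlapping groups. Sars differed by 0.05 and Nars by 0.04, with 95% confidence intervals from −0.27 to 0.36 and from −0.37 to 0.44. Wars differed by 0.015 when the brightest probe was read, and a dimmer probe of the same gene differed by −0.27 with both KO arrays below the controls. Eprs, the bifunctional enzyme for glutamate and proline, differed by 0.006, and its 4 probes ran from −0.13 to 0.06. Farsb, the beta subunit of the phenylalanine enzyme, differed by −0.04 (SE 0.113), a value that changed sign under spike-in scaling and quantile normalization. Vars differed by −0.05 (SE 0.177) and changed sign under spike-in scaling as well. Xpot, which exports tRNA from the nucleus, measured 1.74 and 1.80 in the controls and 1.76 and 1.47 in KO, a difference of −0.15 (SE 0.139).

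**Figure D5:**
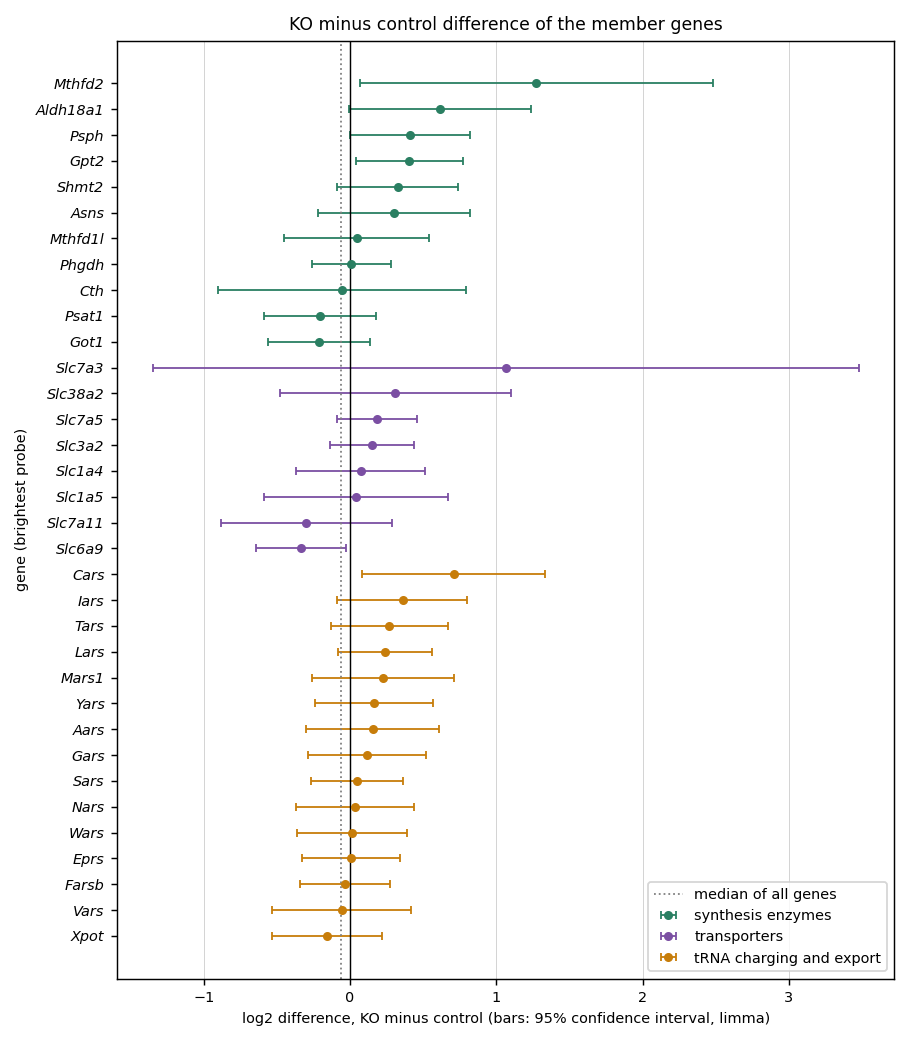
KO minus control log2 difference of each of the 34 members (points) with its 95% confidence interval from limma (bars), coloured by role; the dotted line is the median of all genes, −0.064. The intervals of Mthfd2, Gpt2 and Cars lie above 0 and that of Slc6a9 below it, before any adjustment for the number of probes.

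Of the 13 members with more than 1 kept probe, 8 had all probes on the same side of 0 and 5 did not. The 5 were Slc7a11, Slc3a2, Eprs, Farsb and Wars. For Shmt2 and Mthfd1l, 1 further probe each did not pass the filter.

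The element and the differences were set side by side for the members that had both. The 9 measured members with TGATGNAA in the promoter window had a median difference of 0.155, with 7 above 0, 2 with separate groups higher in KO and 2 lower, and a range from −0.30 to 0.36. The 16 members with a promoter but no such match had a median of 0.098, with 12 above 0, 6 with separate groups higher and 2 lower, and a range from −0.33 to 1.27. Of all genes, 36.1% were above 0, and 13.8% had separate groups higher and 32.1% lower. The member with the largest difference, Mthfd2, was among those without a match in this window. The range of the members with a match lay within that of the members without one.

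Genes of the same pathways that are not on the list were described from 4 further lists. Like the members, they were chosen with earlier results of these data known. Of 68 measured, 24 had a difference above 0, the median was −0.054, and 10 had separate groups higher in KO and 19 lower, against 36.1%, 13.8% and 32.1% of all genes. With limma 0 passed the adjusted threshold, and at an unadjusted p under 0.05 there were 2 higher and 0 lower. Among the 10 other cytosolic synthetases and their cofactors, 2 were above 0, with a median of −0.07 and no difference beyond 0.20 in size. Eef1e1, a cofactor of the multisynthetase complex, differed by −0.20 (SE 0.103), and Rars, the arginine enzyme, by 0.02 (SE 0.114). The 17 mitochondrial synthetases had a median of −0.03, with 7 above 0. Mars2, the mitochondrial methionine enzyme, had the smallest unadjusted p of these, with −5.06 and −5.26 in the controls and −4.65 and −4.76 in KO, a difference of 0.45 (SE 0.125; limma adjusted p 0.299).

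Of the 22 other amino acid and folate enzymes, 10 were above 0, and the median was −0.04. Aldh1l2, the mitochondrial enzyme that removes formyl groups from folate downstream of Mthfd2, measured −1.27 and −1.03 in the controls and −0.09 and −0.77 in KO. Its groups were separate with KO 1 highest, as for Mthfd2, and the difference was 0.72 (SE 0.260; limma adjusted p 0.348). Mthfd1, the cytosolic counterpart of Mthfd2, differed by −0.26 (SE 0.102), with both KO arrays below the controls. Of 19 other transporters measured, 5 were above 0, with a median of −0.12. Slc7a1, the main carrier of cationic amino acids, measured 3.0 and 3.23 in the controls and 3.80 and 3.25 in KO, a difference of 0.41 (SE 0.224; limma adjusted p 0.467). Slc38a3, a glutamine carrier of astrocytes, differed by −0.30 (SE 0.112) with both KO arrays below.

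Regulators and further targets of ATF4 had values of the same kind. Atf4 itself measured 6.13 and 6.65 in the controls and 6.90 and 6.62 in KO, the order of arrays seen for Asns, with a difference of 0.37 (SE 0.223; limma adjusted p 0.5). Of the 19 regulators and further targets, 14 were above 0, 10 had separate groups higher in KO and 1 lower, against 36.1%, 13.8% and 32.1% of all genes, and the median was 0.191. Ddit3 (CHOP), a partner of ATF4, differed by 0.48 (SE 0.239, limma adjusted p 0.438). Trib3 differed by 1.42 (SE 0.390, limma adjusted p 0.296) and Chac1 by 1.24 (SE 0.426, limma adjusted p 0.337). Each of them had separate groups. Control 1 and control 2 measured −1.18 and −0.14 for Trib3, 0.58 and 1.8 for Chac1, and 0.12 and 0.06 for Ddit3. Eif2ak1, a kinase of eIF2 that responds to haem, differed by −0.29 (SE 0.108).

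Some sets of cell type markers also differed between the groups or on single arrays. Their part in the differences of the members was not tested. Of all 16524 genes, 10557 were below 0, with a median of −0.064. Of 12 oligodendrocyte markers, 11 were below 0 with a median of −0.32, and their summed signal reached 478.3 and 453.6 on the control arrays, 403.8 on KO 1 and 453.4 on KO 2. All 12 microglia markers were below 0, with a median of −0.21 and sums of 94.86 and 99.10 in the controls and 88.27 and 91.98 in KO. Of the 12 markers of astrocytes and Bergmann glia, the cells that make most serine, 8 were below 0, with a median of −0.09 and sums of 540.5 and 544.7 against 496.3 and 526.6. The medians were −0.09 for Purkinje cells, −0.03 for granule cells and −0.11 for endothelium. These and the astrocyte median lay nearer to that of all genes than the oligodendrocyte and microglia medians did. The summed signal of 6 measured red blood cell markers reached 418.3 and 606.3 on the control arrays, 432.2 on KO 1 and 416.9 on KO 2. Among the markers with no probe past the filter were Sostdc1 of the choroid plexus and Hbb-bs of red blood cells. The lists were not wholly separate, since Aldh1l1, Slc1a2 and Slc1a3 stood among the astrocyte markers and among the other amino acid genes.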

How the data were processed

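Total RNA, 150 ng per sample, was labelled with Cy3 for Agilent arrays of 1 colour, as the labels' protocols state. The deposited processed signal is an intensity, background subtracted and detrended within each array, per the file headers, by version 12.1.1.1 of Feature Extraction; the submitters' processing notes name version 10.7.1.1. The deposited series table holds log2 values whose scaling and centring are not given in the sources used here, and it served as an alternative only. Spots of the same probe were averaged as log2 intensity after outlier spots (65 to 176 per array) were dropped, and the 75th percentile of each array (9.50 to 9.64) was subtracted. Each array had 59305 non-control spots, 66.4% to 69.4% of them well above background, with 0 saturated. Probes with a signal well above background in both samples of a group were tested with limma 3.58.1 in R 4.3.3 (lmFit, eBayes, no covariates, Benjamini-Hochberg over all probes); each probe had 4.35 degrees of freedom, prior included. An exact two-sided permutation of 2 against 2 arrays cannot give a p under 0.333. Nothing in the labels says that samples were paired, and 2 arrays per group limit the precision. Probes were named through RefSeq accessions without versions and the GRCm38.p6 gene table; 32994 of 56605 probes had a symbol. The files state no genome build, and coordinates and sequences printed here are those of the RefSeq promoter table. All members were named; of each other list, up to 2 genes per direction with the smallest unadjusted p were eligible, besides Atf4, Ddit3, Trib3, Chac1 and Derl2. The members and lists were chosen with earlier results of these data known. The fit was tested on simulated data. Alternatives were other scalings, the authors' log2 table, normexp with an offset of 50 on the deposited median spot intensity, other filters, omission of spots on patches of raised local background (1.5 times the median of the array, with a margin of 2 spots), an intensity trend, a replicate block, the mean of all probes, and each array left out. Of the promoter matches that are counted, 1 strict match is not reported here, nor is 1 marker gene.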

Additional observations from a re-analysis of the deposited data

How the results depend on the processing

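The members past an adjusted p under 0.05 stayed at 0 under all 17 alternatives, each of them chosen with earlier results known. Over all genes that count was 0 too, except for 188 without control 2, 9 without control 1 and 2 with the intensity trend. The median difference of the 34 members stayed above 0 under all of them, from 0.054 to 0.231, and so did its distance from the median of all genes, from 0.112 to 0.29. The cause of the shifts that follow was not tested.

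Counts rest on few genes and moved with the setting. The 3 members higher in KO at an unadjusted p under 0.05 became 5 under quantile normalization, spike-in scaling, the 75th percentile of probes well above background, the filter on all arrays and omission of patch spots. They became 7 under normexp, 8 under an intensity trend with robust variances, and 1 with no filter on dim probes or the mean of all probes. The count of all genes at that p, in either direction, moved too, from 1456 to 1793 under normexp, 2140 under the trend, 1318 of 22899 with no filter and 1408 with the mean of all probes, and was between 1329 and 1480 under the 5 settings named first. With an array left out, the members higher in KO ran from 0 to 5, and all genes from 961 to 1328. The 1 member lower in KO became 0 under quantile normalization, the same percentile, spike-in scaling and no filter, and ran from 0 to 2 with an array left out. The 4 members with separate groups lower in KO became 1 under quantile normalization, that percentile and spike-in scaling, and 2 under normexp. The shares of all genes were 24.9%, 23.6%, 16.9% and 31.3% in that order, against 32.1% in the main setting. With an array left out the members lower in KO ran from 5 to 8, against 45.1% to 48.8% of all genes. Those higher in KO ran from 13 to 22, against 22.1% to 28.4% of all genes. When 1 array is left out, the lone sample is assumed to vary like the other group.

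The replicate numbers were not stated to pair the samples. Deviations of same-numbered samples correlated at 0.124 over probes. With the number as a replicate block, the members at a limma unadjusted p under 0.05 went from 3 to 1 higher and from 1 to 0 lower in KO. The count of all genes at that p, in either direction, went from 1456 to 1733. The median of 0.131 and the counts of separate groups do not depend on the block.

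The transport median of 0.109 was 0.147 under quantile normalization, 0.154 under the percentile of probes well above background, 0.197 under spike-in scaling and 0.058 with the mean of all probes. With an array left out it ran from 0.035 to 0.131, and the synthesis median from 0.097 to 0.437.

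Of 578 member values, 543 kept their direction and 35 did not; 18 members kept it under every alternative. Under normexp, Phgdh was −0.016, Cth 0.001 and Slc1a4 −0.005. Under spike-in scaling Cth was 0.031, Farsb 0.051 and Vars 0.036. With the mean of all probes Slc3a2 was −0.007, Eprs −0.022 and Wars −0.128. Farsb was 0.004 under quantile normalization and 0.007 under the percentile of probes well above background. With an array left out, Phgdh ran from −0.025 to 0.044, Mthfd1l from −0.185 to 0.276, Cth from −0.493 to 0.379, Slc7a3 from −0.211 to 2.336 and Slc38a2 from −0.044 to 0.661. Slc1a4 ran from −0.074 to 0.218, Slc1a5 from −0.267 to 0.353, Aars from −0.031 to 0.34, Eprs from −0.093 to 0.105 and Farsb from −0.122 to 0.048. Gars ran from −0.015 to 0.244, Nars from −0.115 to 0.187, Sars from −0.033 to 0.128, Vars from −0.231 to 0.126 and Wars from −0.129 to 0.159.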
